A study of Mus musculus with 461 samples.

Results

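The comparison set mouse cells sampled 1 day into a reprogramming course against cells of day 0 of the same course, within 1 of the 3 title prefixes of the series, b2. All cells whose title starts with b2_7FD1_ or b2_7FD0_ were taken, with no selection on expression. These were 58 cells of day 1 and 54 cells of day 0, or 112 of the 461 single cells of the series. Each cell is 1 library made on the Fluidigm C1 system, a microfluidic device that captures single cells and amplifies their mRNA. The cells of both days came from OG2 transgenic mouse embryonic fibroblasts (MEFs), which carry a fluorescent reporter driven by the Oct4 (Pou5f1) promoter, and the strain on the labels was a mix of 1/2 129SVJ with 3/8 C57B6 and 1/8 CBA. Per the labels, MEFs were kept in medium with 10% FBS and reprogramming cells in iCD1, a chemically defined medium. Which medium the day 0 cells were in, and when the factors were added, the labels do not say, so a part of the medium in the results was not tested. The labels call the course 7F and do not name the factors, and they give no animal, culture, age or embryo stage and no meaning of the prefix. Each day of b2 was therefore 1 sample, no test between the days was possible, and SDs below are the spread between cells of 1 sample. A further 20 day 0 cells, of prefix b1, served as a second day 0 set.

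Reprogramming by factors turns fibroblasts into pluripotent stem cells. Fibroblasts in serum on a stiff surface assemble stress fibres, secrete collagen and keep the coactivators YAP and MRTF active in the nucleus, and the genes of this state are among the first that reprogramming cells lose. Genes of the pluripotency network such as Sox2 and Pou5f1 are silent in fibroblasts and are switched on along the way. As published, 7F stands for Nanog, Esrrb and Sall4, which are themselves genes of that network, with Glis1, Jdp2, Kdm2b and Map2k6.

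The day 0 cells of b2 stood apart from the other cells by their number of genes. They had a median of 6089.5 genes (5053 to 8842) at a TPM (relative transcript abundance, scaled to the same total in each cell) of 1 or more, against 7567.5 (4916 to 9897) at day 1 and 7452 in the day 0 cells of b1. Day 0 cells nevertheless had the higher counts, with a median of 3.30 M expected counts (M, mega; 0.880 to 5.92) against 2.54 M (0.755 to 5.41) at day 1. With each cell thinned to 300000 counts, which all cells reached, the medians were 5915 and 7456 genes. Of fibroblast markers at day 0, Col1a1 and Col1a2 were detected in 53 and 52 of 54 cells and Thy1 in 21. Of 10 macrophage markers 8 were at 0 in all day 0 cells and 6 in all day 1 cells. Ptprc, Adgre1, Tyrobp, C1qa and C1qb were so on both days, but Laptm5, described below, only at day 0. Of 6 skeletal muscle markers 3 (Myod1, Myog, Myh3) were at 0 in all cells of both days. The summed TPM of those 6 reached 147 in the highest day 0 cell and 1571 in the highest day 1 cell, with medians of 0. Of 7 marker lists of other cell types none had 3 or more of its markers in more than 2 cells of either day. The highest Pearson correlation between any 2 of the 112 cells was 0.852, so no cell appeared to have been deposited more than once.

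For each gene the mean over cells of log2(TPM + 1) was compared, and a difference of at least 1 in either direction is called higher or lower below. Of 13106 genes with a TPM of 1 or more in at least 10% of the cells of either day, 1824 were higher at day 1 (13.9%) and 367 were lower (2.8%). No gene separated the 2 days completely: 0 of 13106 genes (0%) had all cells of one day above all cells of the other. Together these were 2191 genes (16.7%). The same limit was passed by 2161 genes (16.5%) between the b1 and b2 cells of day 0, of which 1917 (14.6%) were higher in b1, the set with more genes per cell, and 244 (1.86%) lower. At day 3, the other day with many cells of both prefixes, b1 and b2 differed past the limit in 1181 genes (9.01%), 993 higher in b1 (7.58%) and 188 lower (1.43%). A count of this size thus also arose between 2 sets of the same day, and what the prefix stands for is not known. For 1812 genes (13.8%) the difference between the days was past the limit and larger in size than the gap between the day 0 sets. The median difference over all genes was 0.28. After that shift was subtracted 1069 genes were higher and 671 lower, and among cells with 6000 to 8000 genes on both days (26 and 35 cells) 1229 were higher and 925 lower. The split of 83.2% higher to lower thus went to 61.4% and 57.1%. Against the day 0 cells of b1, the day 1 cells had 1071 genes higher (8.17%) and 1147 lower (8.75%), 2218 in all (16.9%). Past the limit against both day 0 sets were 670 higher genes (5.11%) and 233 lower genes (1.78%), 903 in all (6.89%). For many but not all genes described below, the difference from b1 is given beside that from b2. A gene given without it was not necessarily past the limit against b1. The plot of both differences shows that 352 of the 1824 higher genes but only 13 of the 367 lower genes had the opposite sign against b1.

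**Figure D1:**
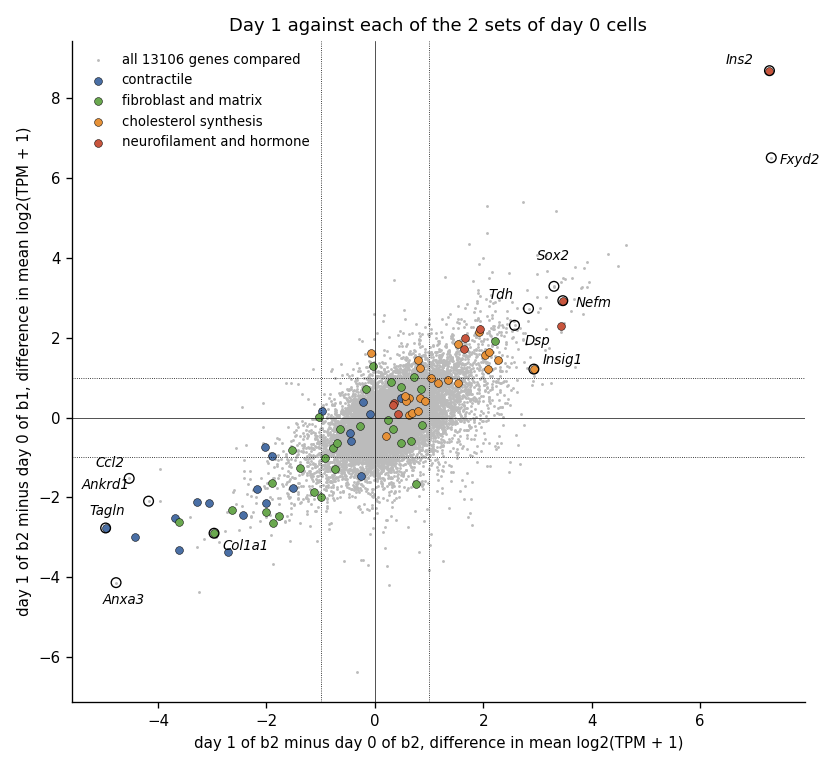
Difference in mean log2(TPM + 1) of each of 13106 genes (points) between the 58 day 1 cells of b2 and the 54 day 0 cells of b2 (x axis) or the 20 day 0 cells of b1 (y axis). Colours mark 4 gene lists, open circles mark the labelled genes, and dotted lines stand at differences of 1 and -1. Ins2 and Fxyd2 lie farthest to the upper right, and Tagln, Anxa3 and Ankrd1 are far below 0 on both axes.

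The 7F factors were already abundant at day 0, and none of the 7 was higher or lower at day 1. Esrrb, an orphan nuclear receptor, had a median of 595 TPM at day 0 (lowest 1.13, highest 4009) and 549 at day 1 (lowest 9.68, highest 2659), a difference of 0.00 in mean log2(TPM + 1). Nanog, a homeodomain factor, had medians of 242 and 237 TPM (difference 0.60) and Map2k6, a kinase upstream of p38, 594 and 467.5 (difference 0.25). Sall4, a zinc finger factor, had medians of 105.95 and 57.1 TPM (difference -0.20), and Jdp2, a member of the AP-1 family, 176 and 189 (difference 0.55). Kdm2b, a histone demethylase, differed by 0.51. Glis1, a zinc finger factor found in maternal transcripts, was the low member, with 28 of 54 and 42 of 58 cells at a TPM of 1 or more and medians of 1.5 and 4.09. Vector and native transcripts cannot be told apart in these gene values. The 6 factors other than Glis1 were detected together in 46 of 54 cells at day 0 (85.2%, exact Clopper-Pearson 95% interval 72.9 to 93.4) and in 58 of 58 at day 1 (100%, 93.8 to 100). The spread of log2(TPM + 1) between cells was smaller at day 1 for all 7 factors, for example an SD of 1.41 against 2.55 for Nanog. The same held for 80.6% of the 1958 genes with a mean of 5 or more over both days.

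Sox2, a high mobility group factor of the pluripotency network, was absent from most day 0 cells and present in almost all day 1 cells. Its TPM at day 0 ran from 0 (also the median) to 8.27, and at day 1 from 0 through a median of 8.67 to 75.3. Sox2 (ENSMUSG00000074637) was detected in 3 of 54 cells (5.56%, 1.16 to 15.4) and then in 55 of 58 (94.8%, 85.6 to 98.9). Its mean log2(TPM + 1) went from 0.11 ± 0.49 (SD over cells) to 3.41 ± 1.59, a difference of 3.30, or 3.28 against b1. In 97.1% of all pairs of a day 1 and a day 0 cell the day 1 cell was higher, counting ties as 0.5. In summed counts Sox2 went from 0.331 to 26.1 CPM (counts scaled to the same total per day), a ratio of 78.9 with an exact binomial interval of 61.1 to 103.6 that covers counting error only. Tdh (ENSMUSG00000021953), the threonine dehydrogenase on which mouse embryonic stem cells depend, showed a split among the day 1 cells. It was at 0 in all 54 day 0 cells, which allows a share of up to 5.56%, and at day 1 it ran from 0 through a median of 1.47 to 457 TPM. It was detected in 32 of 58 cells (55.2%, 41.5 to 68.3), 11 of them at 100 TPM or more. Its difference was 2.83, or 2.73 against b1, and its summed counts of 8535 against 0 made it at least 3907-fold higher over the whole day, taking 3 counts for day 0. With each cell thinned to 300000 counts, Sox2 had a count in 3.70% of the day 0 and 86.2% of the day 1 cells, and Tdh in 0% and 50%. In day 1 cells under 2 M counts and in those with more, the difference was 3.34 and 3.27 for Sox2 and 3.57 and 2.24 for Tdh. The cells under 2 M counts had more genes, a median of 8643.5 against 7299, so this split is not one of depth alone.

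Many other genes of the pluripotency network were undetected on one or both days. Of 30 listed genes 19 were at a TPM under 1 in every day 0 cell, and 10 of these 19 were so in every day 1 cell too. Of the 30 genes 11 entered the comparison, 7 of them through their share of day 1 cells alone, so that their count and median were tilted upward by the filter and show nothing on their own. The genes past the limit were Sox2, Tdh and Klf5, all higher. In summed counts, where single cells weigh more, 7 of the 11 were higher and 1 lower, beside 2085 and 1437 of all 13106 genes. Klf5, a Krüppel-like factor, went from 10 of 54 to 38 of 58 cells (difference 1.76, but 0.68 against b1, where 60% of cells had it). Pou5f1, the partner of Sox2 and the gene that the reporter follows, was detected in 1 cell at day 0 and 12 at day 1 (20.7%, 11.2 to 33.4). Its highest day 1 cell had 84.9 TPM and 41% of the day's counts, and its difference of 0.69 did not reach the limit. All 12 of those cells also had Sox2, as had 55 of all 58 day 1 cells, and 8 had Sox2 and Tdh. Sox2 and Tdh were found together in 0 of 54 and then 30 of 58 cells, with Tdh in 32 of the 58. Because nearly all day 1 cells had Sox2, these overlaps do not show that the genes came on together. The late genes Nr0b1, Dppa5a and Utf1 reached 6, 6 and 4 day 1 cells, and Zfp42 reached none at a TPM of 1. Of the 58 day 1 cells, 47 had both Sox2 and Col1a1. Sox2 was found in 11 of the 13 day 1 cells with Ankrd1, and without Ankrd1 in 44 cells. Of 24 epithelial genes 10 were compared, 4 of them through day 1 cells alone, and, against 13.9% of all genes, 2 were higher. Dsp, the desmosomal plaque gene, was one (difference 2.58, or 2.31 against b1, from 8 of 54 to 48 of 58 cells). The other was Cldn4, a tight junction gene (1.03, but 0.47 against b1, from 2 of 54 to 22 of 58 cells). In summed counts Cldn4 went the other way (-0.73), and 1 day 0 cell held 78% of its counts of that day. Cdh1, which encodes E-cadherin, differed by 0.65 and was found in 24 of 58 cells, and the adhesion gene Epcam in 3 of 58.

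**Figure D2:**
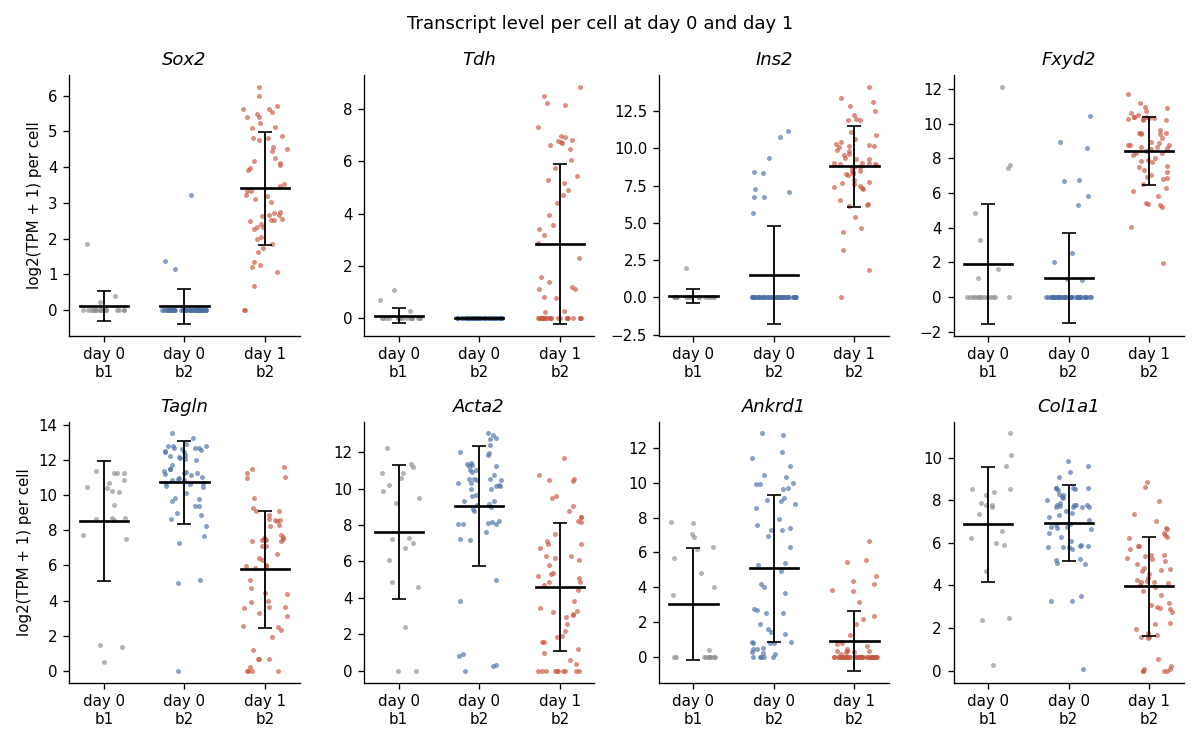
Level of 8 genes in single cells as log2(TPM + 1) (y axis), in the 20 day 0 cells of b1, the 54 day 0 cells of b2 and the 58 day 1 cells of b2 (points, spread sideways for display). Bars give the mean and the SD over cells. Sox2, Ins2 and Fxyd2 are near 0 in most day 0 cells and above it in nearly all day 1 cells, Tdh splits the day 1 cells, and Tagln, Acta2, Ankrd1 and Col1a1 are lower at day 1 with wide overlap.

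Genes found in many more cells at day 1 than at day 0 could be counted by the share of cells. For 92 genes the share of cells at a TPM of 1 or more was higher at day 1 by 50 percentage points or more, while the median change over all genes was 10.1 points. Of these 92 genes, 60 kept such a jump at 300000 counts per cell and 31 had it also against the b1 cells of day 0. Between the b1 and b2 cells of day 0 themselves, 201 genes differed by 50 points or more in the direction of b1. Such a jump need not start near 0, and Mt2, for example, went from 33.3% to 94.8% of cells. From under 10% of the day 0 cells to over 80% of the day 1 cells went 2 genes, Sox2 and Nefm. Sox2 had the largest jump (89.3 points, 89.8 against b1), followed by Fxyd2 (81.5 and 65), Nefm (80.7 and 66.2) and Ins2 (79.8 and 93.3). In the other direction 9 genes had shares lower by 40 points or more. The largest were Ccn2, from 85.2% (72.9 to 93.4) to 32.8% (21 to 46.3), and Ankrd1, from 70.4% (56.4 to 82) to 22.4% (12.5 to 35.3). Other strongly lowered genes stayed detectable, for example Tagln and Col1a1, each in 53 of 54 and 50 of 58 cells.

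**Figure D3:**
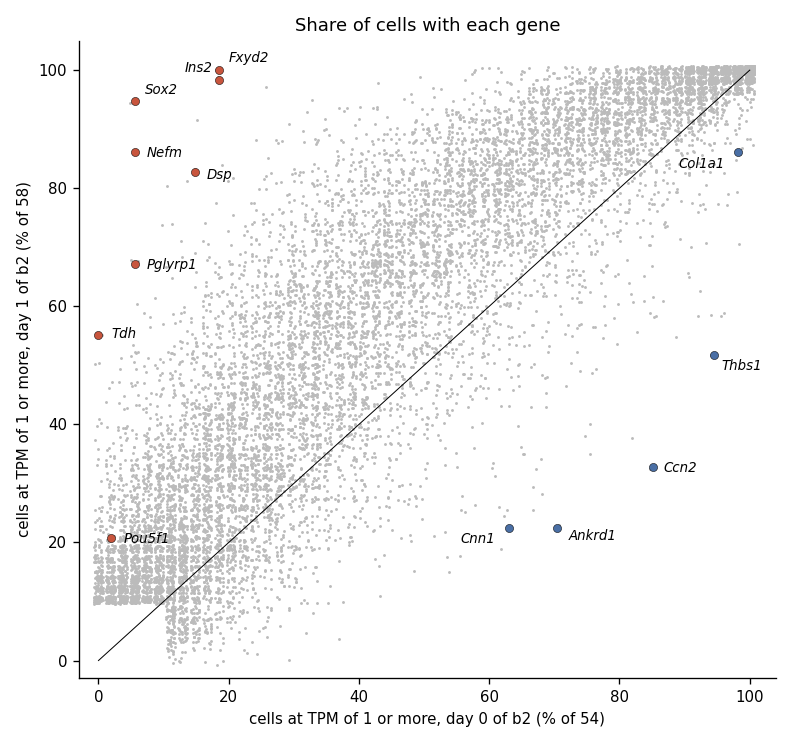
Share of cells at a TPM of 1 or more at day 0 of b2 (x axis, percent of 54 cells) and day 1 of b2 (y axis, percent of 58 cells) for 13106 genes (grey points, spread slightly for display). The line marks equal shares, and labelled genes are red where the share was higher and blue where it was lower at day 1. Sox2, Nefm, Ins2 and Fxyd2 lie near the upper left corner, and Ankrd1, Ccn2 and Cnn1 lie far below the line.

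The largest rises were not those of pluripotency genes. Fxyd2, which encodes the gamma subunit of the sodium-potassium pump, had a median of 0 TPM at day 0 (highest 1411) and 397 at day 1 (lowest 2.92, highest 3359.8). It was found in 10 of 54 and 58 of 58 cells, with a difference of 7.31 (6.50 against b1). Ins2, an insulin gene, went from a median of 0 (highest 2229) to 497 TPM (highest 17854) and from 10 of 54 to 57 of 58 cells, a difference of 7.28 (8.68 against b1). It was thus a broad rise and not that of a few cells, since 48 of 58 day 1 cells had 100 TPM or more, though the highest cell held 23% of the day 1 counts. The metallothionein genes Mt1 and Mt2, which encode metal-binding proteins, differed by 4.64 and 3.64. Isyna1, the inositol-3-phosphate synthase gene, went from a median of 7.26 to 229 TPM (difference 4.48), and every day 1 cell had it. Fxyd6, another pump regulator, differed by 4.30, Pglyrp1, a peptidoglycan-binding protein gene, by 3.95, and Acy3, an aminoacylase gene, by 3.92. Prkcb, a protein kinase C gene, differed by 3.9, Aldh1a3, which encodes a retinaldehyde dehydrogenase, by 3.83, and Upp1, the uridine phosphorylase gene, by 3.81. Rtl8b differed by 3.69, but it has near-identical copies with which reads may be shared. All 12 of these largest rises were also higher against b1, by 2.58 (Aldh1a3) to 8.68 (Ins2).

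A list named for its neurofilament and hormone genes held 17 members. Of these 9 entered the comparison, 8 of them through their share of day 1 cells alone. The count of those past the limit, 6 higher and 0 lower, is therefore no evidence of a direction, and the list was drawn up with earlier results for these cells known. With the median over cells in place of the mean, 3 were higher, beside 3169 of all 13106 genes, and the list median was 0. Nefm, the medium neurofilament gene, was broad, with 3 of 54 and 50 of 58 cells and a difference of 3.47 (2.93 against b1). Nefh, the heavy neurofilament gene, reached 26 of 58 cells (difference 1.64). Gal, the galanin gene, was found in 3 of 54 and 35 of 58 cells (difference 3.43, or 2.28 against b1), but 1 cell held 82% of its day 1 counts. For Penk, the proenkephalin gene (difference 1.66), and Ptgds, a prostaglandin D synthase gene (1.94), the highest cell held 77% and 70%. Of markers of other cell types, the haemoglobin gene Hba-a1 was also higher (difference 1.99, 3 of 54 and 30 of 58 cells) with Hbb-bt and Hbb-bs at 0 on both days, and so was Laptm5 (1.32, 0 of 54 and 24 of 58 cells) with Ptprc and Tyrobp at 0. Over their whole lists, the summed TPM per cell of 5 erythroid markers ran from 0 to 25.96 at day 0 and from 0 to 1049 at day 1, and that of 10 macrophage markers from 0 to 251 and from 0 to 93.5. Of these lists 2 and 6 markers were at 0 in all day 1 cells. Their part in other results was not tested.

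Contractile genes were the list with the lowest median. Of 20 genes compared 13 were lower and 0 higher, against 2.8% and 13.9% of all genes, with a median of -2.01 (-1.78 against b1), and 11 were lower against both day 0 sets. Tagln (transgelin), an actin-binding protein gene of smooth muscle and activated fibroblasts, had a median of 2439 TPM at day 0 (lowest 0, highest 11834) and 82.4 at day 1 (lowest 0, highest 3136). It showed the largest fall of the named genes, a difference of -4.97, but it was -2.77 against b1. Acta2, the smooth muscle actin of stress fibres, went from a median of 1079 TPM (highest 8381) to 26.8 (highest 3309), a difference of -4.43 (-2.99 against b1). Myl9, a myosin light chain gene, differed by -3.69, Tpm2, a tropomyosin gene, by -3.62, Cnn1, the calponin gene, by -3.06 and Vcl, the vinculin gene, by -2.0. Tagln2, a relative of Tagln, was close to the limit at -0.97 but at 0.16 against b1, and Smtn, the smoothelin gene, was at -0.22. In 10.0% of pairs of a day 1 and a day 0 cell the day 1 cell had more Tagln. The contractile score of a cell, its mean log2(TPM + 1) over the list, had a median of 5.90 at day 0 and 3.64 at day 1, and 5.32 in the b1 cells of day 0. Of 58 day 1 cells 52 were below the lower quartile of the day 0 cells and 3 were above their median, so the fall was spread over most cells. Day 1 cells with fewer and with more than 2 M counts (26 and 32 cells) gave list medians of -1.81 and -1.98. Across the cells of a day Tagln followed Acta2, with a Spearman correlation of 0.83 at day 0 (54 cells) and 0.74 at day 1 (58 cells).

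Many contractile genes carry the CArG box, the motif bound by SRF with its coactivator MRTF, and many YAP target genes carry GGAATG, the core bound by the TEAD partners of YAP. Promoters of 4 lowered genes are shown because they hold these letters, as the 250 bases before the start in RefSeq (GRCm38.p6), with the motifs in capitals. They lie at chr2:156775214-156775463 (+ strand) for Myl9, chr14:20929148-20929397 (+ strand) for Vcl, chr19:34255374-34255623 (- strand) for Acta2 and chr19:36119845-36120094 (- strand) for Ankrd1, each printed 5′ to 3′ on the gene's strand.
Myl9: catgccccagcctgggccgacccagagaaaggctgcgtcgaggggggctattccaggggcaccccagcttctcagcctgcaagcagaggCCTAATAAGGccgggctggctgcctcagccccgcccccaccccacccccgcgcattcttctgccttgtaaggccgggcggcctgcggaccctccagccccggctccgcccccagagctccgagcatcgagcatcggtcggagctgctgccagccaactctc
Vcl: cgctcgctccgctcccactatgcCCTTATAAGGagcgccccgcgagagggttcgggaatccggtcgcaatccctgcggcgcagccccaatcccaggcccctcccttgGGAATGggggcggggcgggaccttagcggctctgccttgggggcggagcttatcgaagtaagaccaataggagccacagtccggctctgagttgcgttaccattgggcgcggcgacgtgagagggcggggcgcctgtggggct
Acta2: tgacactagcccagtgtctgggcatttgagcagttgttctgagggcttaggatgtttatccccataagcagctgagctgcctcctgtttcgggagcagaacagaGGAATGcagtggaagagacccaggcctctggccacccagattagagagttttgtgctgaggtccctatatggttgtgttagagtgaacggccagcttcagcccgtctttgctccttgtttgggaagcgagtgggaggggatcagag
Ankrd1: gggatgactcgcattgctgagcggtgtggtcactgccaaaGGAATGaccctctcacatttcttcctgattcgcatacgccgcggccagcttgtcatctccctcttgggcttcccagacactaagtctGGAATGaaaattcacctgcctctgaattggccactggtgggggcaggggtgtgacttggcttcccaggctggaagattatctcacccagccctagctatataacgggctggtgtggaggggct
The Myl9 promoter holds 1 CArG box, 161 to 152 bases before the start. That of Vcl holds 1 CArG box (227 to 218) and 1 GGAATG (143 to 138), that of Acta2 1 GGAATG (146 to 141) and that of Ankrd1 2 GGAATG (210 to 205 and 123 to 118). Both strands were searched, and the motifs do not overlap each other. Only the strict CArG box was counted, CC and GG with A or T alone between them, at the length of those in capitals. The Acta2 promoter also holds ccctatatgg, which departs from that form at 1 base and was not counted. Looser forms are thus missing from the shares that follow. The strict form was present in 1.40% of all 27025 promoters and in 3 of the 12 found for the lowered contractile genes. Of the 172 promoters found for all genes lower against both day 0 sets, 5.81% held it. GGAATG was present in 12.6% of all promoters, in 5 of the 9 found for lowered YAP targets, in 5 of those 12 and in 18.6% of those 172. It was also present in 4 of the 5 promoters found for contractile genes that were not lower, so within that list it did not mark the lowered genes. Promoters of 492 genes higher against both sets held them in 1.42% and 10.2%. A match describes letters and is not a bound site.

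YAP target genes were lower in the same way. Of 21 compared 11 were lower and 0 higher, against 2.8% and 13.9% of all genes, with a median of -1.02 (-1.08 against b1). Against both day 0 sets 10 of them were lower, beside 1.78% of all genes. Ankrd1 (ENSMUSG00000024803), a muscle ankyrin repeat protein gene and classical YAP target, had a median of 23.5 TPM at day 0 (lowest 0, highest 7364) and 0 at day 1 (highest 98.6). Of the day 0 cells 23 had 100 TPM or more, and of the day 1 cells 0 had. The difference was -4.17 (-2.09 against b1), and in summed counts Ankrd1 went from 708 to 6.11 CPM. Ccn2, the connective tissue growth factor gene, went from a median of 46.7 to 0 TPM (difference -3.97, or -2.10 against b1). Ccn1, its relative, went from 172 to 11 (-3.40, or -2.49). F3, the tissue factor gene, went from 240 to 6.27 (-3.97, or -1.29). Asap1, a regulator of focal adhesions, was not lower (-0.04, but -1.08 against b1), nor was Myof, the myoferlin gene (-0.41). The plot of scores shows that 51 of the 58 day 1 cells were below the lower quartile of the YAP target score at day 0.

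**Figure D4:**
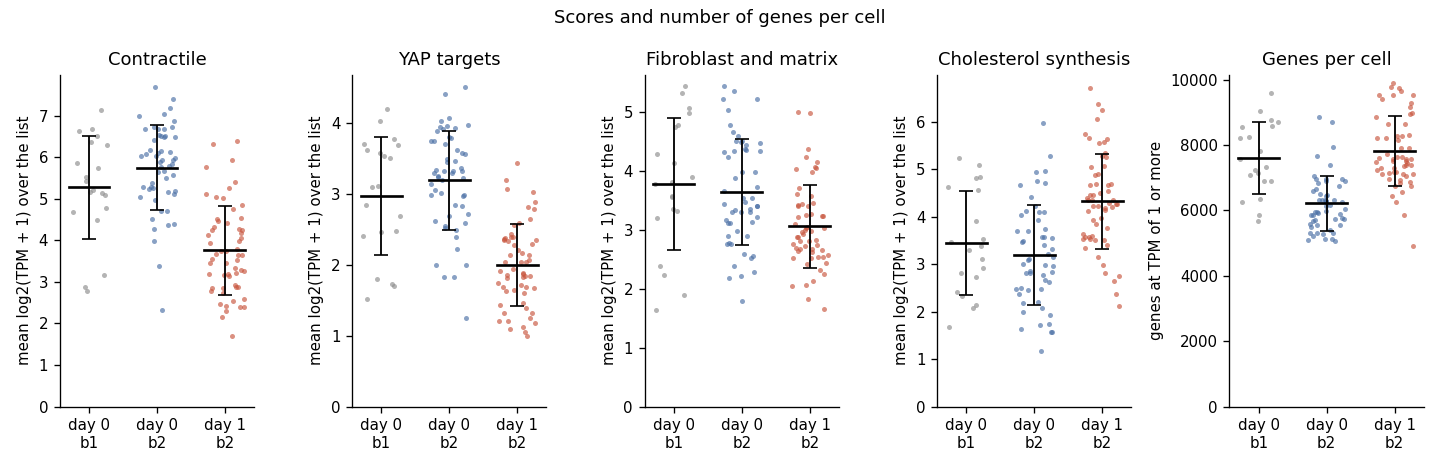
Mean log2(TPM + 1) over 4 gene lists, and the number of genes at a TPM of 1 or more, in each cell (points) of day 0 of b1 (20 cells), day 0 of b2 (54) and day 1 of b2 (58); bars give the mean and SD over cells. Contractile and YAP target scores are lower in the day 1 cells than in both day 0 sets, cholesterol synthesis is higher, and genes per cell are lower in the day 0 cells of b2 than in the other sets.

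Extracellular matrix and mesenchymal genes changed in part. Of 31 compared 11 were lower and 1 was higher, against 2.8% and 13.9% of all genes, with a median of -0.71. Against both day 0 sets 9 were lower and 1 was higher, beside 1.78% and 5.11% of all genes. The list median depended on the cells taken. It was -0.93 for day 1 cells under 2 M counts, which had more genes per cell. It was -0.24 for those with more counts and -0.26 among cells with 6000 to 8000 genes. In these settings 14, 12 and 12 genes were lower, and 2 were higher in each. Over all 13106 genes 474, 403 and 925 were lower, and 2125, 1822 and 1229 were higher. Col1a1 (ENSMUSG00000001506), the main collagen I chain, went from a median of 162 TPM (lowest 0.05, highest 919.8) to 17.2 (lowest 0, highest 457), a difference of -2.97 (-2.90 against b1). Its summed counts went from 894 to 259 CPM, a ratio of 0.290 (0.287 to 0.294, counting error only). Its partner chain Col1a2 differed by -2.64, and Thbs1, the thrombospondin gene, by -3.62. The single higher gene, Col6a3, a collagen VI chain, differed by 2.21 (1.91 against b1). Among members not past the limit were the transcription factor genes Twist1 at 0.86 (-0.20 against b1) and Prrx1 at -0.74 (-1.30). Thy1, a fibroblast surface marker, was at -1.04 but at 0.01 against b1. Loxl1, an elastin crosslinker gene, was at -0.92. The matrix score moved less than the contractile score, from a median of 3.45 to 2.94, and 13 of 58 day 1 cells were above the day 0 median. Other large falls were those of the annexin genes Anxa3, which encodes a calcium-dependent phospholipid-binding protein (median 377 to 4.32 TPM, difference -4.77, or -4.13 against b1), and Anxa1 (552 to 51.8, -3.28, or -3.25).

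Signalling genes moved in a mixed way. The main counts of this and the following lists stand beside 13.9% higher and 2.8% lower over all genes. Other measures had other counts over the 13106 genes. Summed counts gave 2085 higher and 1437 lower with total scaling and 1905 and 1612 with TMM. The median over cells gave 3169 and 487, and cells with 6000 to 8000 genes gave 1229 and 925. A pseudocount of 10 gave 324 and 164. In the TGF-beta, BMP, p53, chemokine and chromatin lists, 1 gene each was compared through day 1 cells alone. Of 18 genes of the TGF-beta and activin list 8 were lower and 3 higher (median -0.72, -0.83 against b1 and -1.40 in summed counts). Lowered members were Tgfb1i1 (Hic-5, -3.16) and the ligand genes Tgfb3 (-1.98) and Inhba, an activin subunit (-1.89), while the cytokine gene Il11 was higher (1.46). Of 14 BMP genes 3 were higher and 2 lower. The target Id3 went from a median of 1047 to 219 TPM (-2.46, or -2.21 against b1) while its relative Id1 was at -0.05, and the inhibitory Smad gene Smad7 was at -1.15. The BMP antagonist gene Grem1 (1.52) and Hey1 (2.21), a repressor gene that Notch and BMP signals induce, were higher. Of 18 Wnt genes 13 were compared, 4 of them through day 1 cells alone, and 6 were higher and 1 lower (median 0.80, 0.58 against b1 and 1.77 in summed counts). They included the feedback genes Axin2 (1.64, from 3 of 54 to 30 of 58 cells) and Nkd1 (1.67), the receptor gene Tnfrsf19 (2.43) and the ubiquitin ligase gene Znrf3 (1.91, but 0.37 against b1). The secreted inhibitor gene Sfrp2 was at 2.42 (0.91 against b1), and Dkk3 was lower (-1.07). Among 11 FGF feedback genes Spry2 differed by 2.44 and Etv5 by 1.62, but by 0.36 and 0.99 against b1, and Spry1 by -1.24, so that 0 of the 11 passed the limit against both day 0 sets.

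Cholesterol synthesis had the highest median of the metabolic lists. Of 23 genes compared 11 were higher and 0 lower, with a median of 0.92 (0.93 against b1, 0.80 among cells with 6000 to 8000 genes), and 7 were higher against both day 0 sets. In summed counts 4 were higher with a median of 0.57 (0.46 with DESeq2 size factors), and with a pseudocount of 10 only 3 were higher. Insig1, which encodes a sterol sensor of the endoplasmic reticulum, went from a median of 16.4 TPM (lowest 0, highest 331) to 113 (lowest 6.25, highest 439), a difference of 2.93 (1.21 against b1). Sqle, the squalene epoxidase gene, differed by 2.27 (1.45), Hsd17b7 by 2.10 (1.65) and Lss, the lanosterol synthase gene, by 2.09 (1.22). The abundant members Hmgcs1, the HMG-CoA synthase gene (0.58), and Msmo1, a sterol oxidase gene (0.83, but 1.25 against b1), did not reach the limit. Of 58 day 1 cells 52 had a cholesterol score above the median of the day 0 cells. Of 16 threonine and one-carbon genes 5 were higher and 0 lower, but 4 and 4 among cells with 6000 to 8000 genes. Of the 16 genes 2, Tdh and Gldc, were compared through day 1 cells alone, so the higher count was tilted upward by the filter. Besides Tdh these included Amt, a subunit gene of the glycine cleavage system (2.07, or 1.14 against b1), and the folate enzyme gene Mthfd1 (1.64, or 0.31), while the serine synthesis gene Psat1 was at -0.89 (-1.82). Among 19 glycolysis and hypoxia genes 3 were higher and 2 lower, against 13.9% and 2.8% of all genes. Past the limit against both day 0 sets were 1 higher and 1 lower. Higher members included Pdk1, the pyruvate dehydrogenase kinase gene (1.79, or 1.63 against b1), and Hk2, a hexokinase gene (1.64, or 0.38). The hypoxia-induced gene Adm was lower (-2.42), and Gapdh was at -0.42. Of 16 amino acid stress genes 0 were higher and 2 lower, Asns, the asparagine synthetase gene (-1.59), and Chac1 (-1.30), with the regulator Atf4 at -0.43. In summed counts 8 were lower (9 with TMM), beside 1437 (1612 with TMM) of all 13106 genes, and the list median went from -0.15 to -1.02.

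Cell cycle genes gave different answers for different day 0 cells and different measures. Of 20 G1/S genes 7 were higher and 0 lower (median 0.63), but against b1 the median was 0.09 and 1 gene, Ccne1 (cyclin E1, 2.01 and 1.67), was higher against both sets. Among cells with 6000 to 8000 genes 3 were higher and 6 lower. Of 20 G2/M genes 1 was higher, Ube2c, a ubiquitin-conjugating enzyme gene of mitosis (1.68, but -0.025 in summed counts scaled by TMM), and 2 lower, Ccnb2 (cyclin B2, -1.28) and Kif20a (-1.27), with a median of -0.16. Among cells with 6000 to 8000 genes 0 were higher and 9 lower. With the median over cells in place of the mean, 9 were higher and 2 lower, with a list median of 0.21. The G2/M score of a cell had a median of 1.24 at day 0 and 1.97 at day 1, while its upper quartile went from 5.11 to 4.05. Of 58 day 1 cells 48 were above the day 0 median, 9 above the day 0 upper quartile and 1 below the lower quartile. Mki67, a proliferation marker, was at -0.20. Of 18 p53 and senescence genes 3 were higher and 2 lower, against 13.9% and 2.8% of all genes. Cdkn1a, which encodes the cell cycle inhibitor p21, had medians of 569 and 795 TPM (difference 1.04, or 1.26 against b1, and 0.76 after the median shift), and the apoptosis gene Pmaip1 was at 1.53. Btg2, an antiproliferative gene, was lower (-2.56, or -0.77 against b1), as was the death receptor gene Fas (-1.55). Cdkn2a, the p16 and p19 locus, was found in 2 and 5 cells.

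Imprinted genes moved in both directions. Of 15 compared 5 were higher and 5 lower, with 4 and 5 against both day 0 sets. Cdkn1c, the growth inhibitor p57, went from a median of 60.6 TPM (lowest 0, highest 3285) to 578 (lowest 18.6, highest 6751), a difference of 3.49 (2.37 against b1). Nnat (neuronatin, 2.67) and Plagl1, a zinc finger factor gene (2.11), were also higher. The zinc finger gene Peg3 was lower (-2.77, or -2.85 against b1), as were Rian (-1.89) and Meg3 (-1.16), both noncoding RNAs of 1 imprinted cluster. Igf2 was abundant on both days, with medians of 633 and 999 TPM (difference 0.96). Against 13.9% of all genes, 2 of 11 chromatin genes were higher, the demethylase gene Kdm6b (1.78, or 0.58 against b1) and the Polycomb gene Suz12 (1.08, or -0.26). Hmga2, a chromatin protein gene of embryonic and mesenchymal cells, was lower (-1.38, or -2.15 against b1).

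Of 20 chemokine and cytokine genes 10 were compared, of which 3 were lower and 1 higher, and in summed counts 5 were lower and 1 higher. Ccl2, a monocyte chemokine gene, went from a median of 154 TPM at day 0 (highest 56982, the cell with 37% of the day's counts) to 0 at day 1 (highest 689.8), a difference of -4.53. Against b1 the difference was -1.52. Ccl7, its neighbour, was at -2.07 but at 0.37 against b1, and the growth factor gene Csf1 was at -2.33 (-1.67). Of 15 immediate early genes 2 were lower and 0 higher, and in summed counts 5 were lower. Ier3 was at -2.45 but at 0.26 against b1, Egr1 at -1.02 (-0.77) and Fos at 0.99 (1.36), so 0 of the 15 passed the limit against both day 0 sets. Of 20 interferon genes 18 were measured and 5 entered the comparison, and 0 passed the limit (2 lower in summed counts), with Ifi35 at -0.66. The plot of all lists shows the contractile, YAP target and chemokine lists at the low end and the cholesterol and Wnt lists, beside the neurofilament list chosen as above, at the high end.

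**Figure D5:**
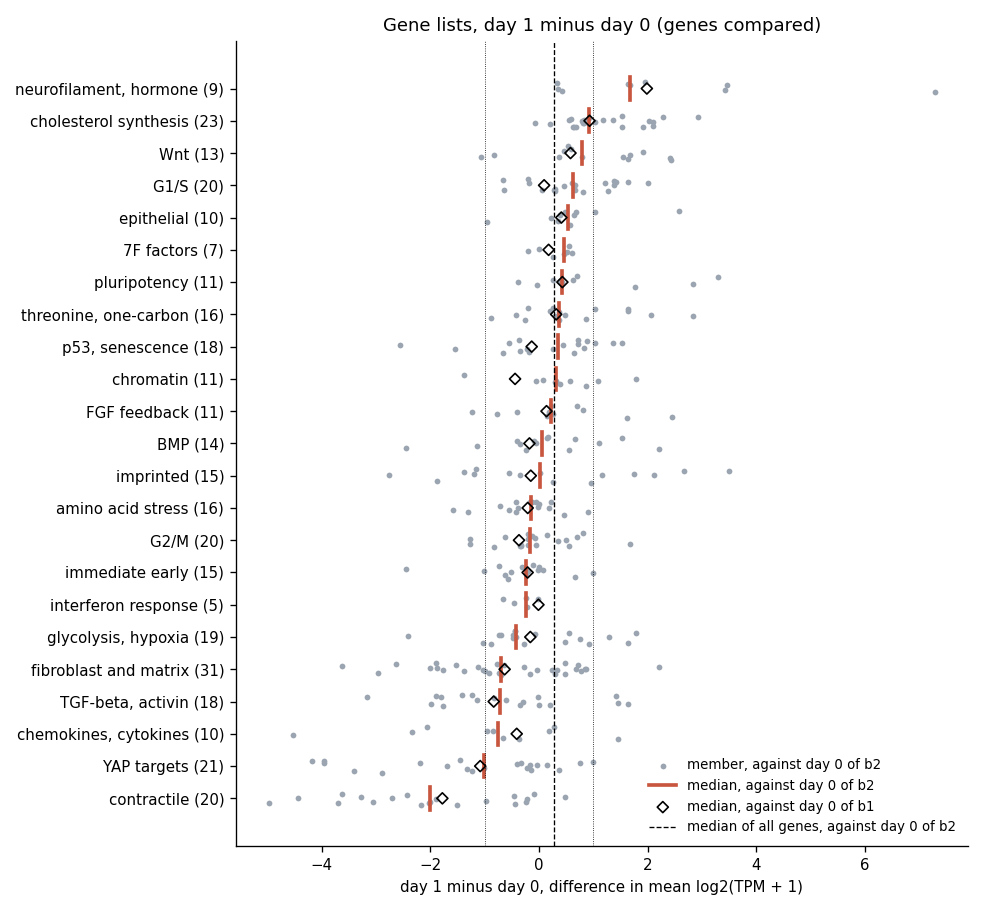
Difference in mean log2(TPM + 1) between day 1 and day 0 of b2 for the members of 23 gene lists (grey points, x axis), ordered by list median (red), with the median against the 20 day 0 cells of b1 as open diamonds and the number of genes compared in brackets. The dashed line is the median of all 13106 genes (0.28) and dotted lines are at 1 and -1. Contractile (-2.01) and YAP target genes (-1.02) lie lowest on both measures, and the G1/S and chromatin medians differ most between the day 0 sets.

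Among the day 1 cells the genes gained and lost were only loosely tied. Over 58 cells of 1 sample the Spearman correlation of Sox2 with Tdh was 0.33, of Sox2 with the contractile score -0.32 and of Tdh with the matrix score -0.43. These are descriptions of cells that share a sample and relative units. Tdh followed the number of genes per cell at 0.25 and Sox2 at 0.14. The mean level of the 7 factors followed Sox2 at 0.12, Tdh at 0.10 and the contractile score at -0.21. Mki67 or Top2a at 10 TPM or more, as a sign of cells in cycle, was found in 28 of 54 cells at day 0 (51.9%, 37.8 to 65.7) and 36 of 58 at day 1 (62.1%, 48.4 to 74.5), and in 12 of the 20 b1 cells.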

How the data were processed

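Single cells were libraries of the Fluidigm C1 system, and per the submitters' processing notes the authors used bcl2fastq and RSEM 1.2.22. No source used here gives the aligner, genome build, annotation or strand setting. The authors deposited expected counts (estimated reads per gene) and TPM values (scaled within each cell), of which 31138 gene names were joined to the 31673 identifiers of the count table, 475 through an older symbol. Mitochondrial genes were not analysed here. Cells were grouped by title prefix and day, no cell was removed and no doublet caller was run.

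The measure was the difference between days of the mean log2(TPM + 1), with a pseudocount of 1, which understates the change of low genes. A TPM of 1 was the detection limit and 10% of the cells of either day the filter. No p-value was computed, because each day was 1 sample. Expected counts were rounded after summing over a day for summed CPM, and in each cell for thinning to 300000. Clopper-Pearson intervals have a level of 95%, and they and limits for 0 cells (3 over the number of cells) cover counting error only, since no molecular identifiers are recorded. The calculation was tested on simulated cells. The alternatives used scaling by TMM (edgeR 4.0.16) and by DESeq2 1.42.0 size factors on the 2 summed columns, in R 4.3.3, and the rest numpy 2.4.6, pandas 2.3.3, scipy 1.17.1 and matplotlib 3.10.9.

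Members, gene lists and alternatives were chosen with earlier results of these data known. The genes named are the markers Sox2, Tdh, Ankrd1 and Col1a1, the 12 largest rises and falls among genes in at least 50% of the cells and at 20 CPM (scaled summed counts) or more on the higher day, up to 4 members past the limit and 2 not past it from each list, and the factors with other usual markers. Predicted genes, pseudogenes, ribosomal protein and histone genes were left out of the largest changes, and some names that the rule gives are not reported here. Cnn1, Vcl, Penk, Nefh, Axin2, Dkk3, Rian and Meg3 were added after their values were seen. Exons of Axin2, Ccn2, Cdkn1a, Cdkn1c, Dsp, Hmga2, Hmgcs1, Ifi35, Igf2, Jdp2, Kdm2b, Kdm6b, Kif20a, Lss, Meg3, Mt2, Mthfd1, Nefm, Nnat, Penk, Plagl1, Pou5f1, Sall4, Sfrp2, Smtn, Spry1, Suz12, Tagln, Tdh, Tgfb3, Thbs1, Ube2c and Vcl overlap a gene on the other strand in the GENCODE annotation, and reads of such pairs cannot be told apart where strand was not used.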

Additional observations from a re-analysis of the deposited data

How the results depend on the processing

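The counts of genes past the limit depended on the measure. Main counts were 1824 higher and 367 lower, 2191 in all. A pseudocount of 0.1 gave 4755 higher and 5292 in all, and one of 10 gave 324 higher, 164 lower and 488 in all. CPM per cell gave 3160 higher (3470 in all), thinned cells 3062 (3391) and the median over cells 3169 (3656). Summed counts, which weight the cells with most of a transcript, gave 1437 lower (3522 in all) with total scaling, 1612 (3517) with TMM and 1646 (3510) with DESeq2 size factors, and shares of 59.2%, 54.2% and 53.1% higher. With the b1 cells as day 0 and the filter applied to them, 1071 were higher and 1178 lower. A limit of 2 left 262 higher and 62 lower, 324 in all. Of alternatives added after seeing the data, centring gave 1069 and 671, and cells with 6000 to 8000 genes gave 925 lower. Removing the filter, filtering at 50% of cells, pooling both day 0 sets, leaving out each gene's highest cell or the cells with fewest genes, and splitting day 1 at 2 M counts changed no count by more than 1.5 times.

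Over all genes, 352 of the 1824 higher and 13 of the 367 lower genes had the opposite sign against b1. Single genes were checked for the named genes only, and only where they were past the limit in the main measure. Of these, signs turned for Thy1 (0.011), Ccl7 (0.37), Cdt1 (-0.17), Suz12 (-0.26) and Ier3 (0.26) against b1. In summed counts they turned for Cldn4 (-0.73 with total scaling, -0.81 with TMM and -0.83 with DESeq2 size factors) and for Ube2c (-0.025 with TMM and -0.045 with DESeq2 size factors). The cause was not tested. The 4 marker genes and the 12 largest rises and falls (27 genes in all) kept their sign and their side of the limit under each of 19 alternatives. No paired analysis was possible because each day was 1 sample with no pairing between cells. With 1 sample a day, differences between days cannot be told apart from any other difference between the sets of cells.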
